A study of Mus musculus with 29 samples.

Results

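The genes described here are 47 mouse genes of DNA replication, taken from a fixed list of symbols, out of the 23366 genes with a row in the count tables. All 47 had a row, all 47 were matched to 1 gene each in the annotation, and all 47 had enough reads to be tested in every comparison. They fall into 7 roles. The licensing factors number 6 (Orc1, Orc2, Orc6, Cdc6, Cdt1 and Gmnn), the helicase and its activators 12 (Mcm2 to Mcm7, Mcm10, Cdc45, Cdc7 and Gins1 to Gins3), and the primase and polymerase subunits 8 (Pola1, Pola2, Pold1, Pold2, Pole, Pole2, Prim1 and Prim2). A further 11 encode the sliding clamp, its loader, the single-strand binding protein and the enzymes that finish the lagging strand (Pcna, Rfc1 to Rfc5, Rpa1 to Rpa3, Fen1 and Lig1), 5 supply deoxynucleotides (Rrm1, Rrm2, Tyms, Tk1 and Dut), 3 act on newly made chromatin (Uhrf1, Chaf1a and Chaf1b) and 2 encode the E cyclins (Ccne1 and Ccne2).

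Ribosomal-RNA-depleted total RNA was sequenced from 29 libraries of sorted bone marrow cells that were lineage-negative, cKit-positive and Sca1-positive, the gate that holds mouse stem and early progenitor cells. The gate was divided by CD150, a surface protein carried by long-term stem cells, into a CD150-positive population of 17 libraries and a CD150-negative population of 12. In the CD150-positive cells 7 libraries were Mysm1-/-Puma-/- (named B1, B3, B5, B6 and P1 to P3), 4 were Mysm1-/-Puma+/- (A1 to A4), 2 were Mysm1+/+Puma-/- (C1-4 and C2-5) and 4 were wild type at both genes (D1, D2, D3-4 and W1). In the CD150-negative cells each genotype had 3 libraries (B1, B3 and B5; A1 to A3; C2, C3 and C5; D2 to D4). All mice were C57BL/6 of 8 to 12 weeks of age, with both sexes pooled. The Mysm1-deficient animals that stand in for the single mutant carried 1 inactive Puma allele, so Mysm1-/-Puma+/- and wild type mice differ at both loci. By their labels, Mysm1-/-Puma-/- and Mysm1-/-Puma+/- mice differ in the second Puma allele only, though their libraries also differed in Mysm1 reads, given below. Mysm1 encodes a histone H2A deubiquitinase needed for normal blood formation, and Puma (gene symbol Bbc3) encodes a pro-apoptotic protein induced by p53. Nothing in the labels states whether each library is a different animal. The p-values below therefore rest on library-to-library spread, and that spread may be technical. What the letters P and W mark was not given in the sources used here.

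Replication is licensed in G1, when the origin recognition complex, CDC6 and CDT1 load the MCM2 to MCM7 ring onto DNA, and geminin, the product of Gmnn, holds CDT1 back once S phase has begun. CDC7 kinase, MCM10, CDC45 and the GINS complex turn the loaded ring into an active helicase, polymerase alpha with primase starts each strand, and polymerases delta and epsilon extend it on the PCNA clamp. Many of these genes are transcribed at the G1 to S transition by E2F factors, which cyclin E with its kinase partner helps to release from RB proteins. In adult marrow most long-term stem cells are out of cycle, the progenitors below them divide more often, and these genes are best known there as marks of dividing cells. In bulk libraries, fewer cells that transcribe a gene and less RNA of it per cell cannot be told apart.

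Because the results turn on genes that move together, the RefSeq promoters on GRCm38.p6 were read for the E2F letters TTTCCCGC, TTTCGCGC, TTTGCCGC and TTTGGCGC and for CCAAT, on both strands and with overlaps allowed, in the 250 bases before each start. An entry was found for 39 of the 47 genes, and 9 of the 39 (23.1%) held at least 1 of the E2F words (Cdc6, Gins3, Mcm5, Mcm6, Mcm7, Orc1, Pola1, Rfc3 and Uhrf1), against 2.16% of 27025 genes read the same way. CCAAT was found in 24 of the 39 (61.5%), against 37.5% of all genes. The windows of 6 genes are printed 5′ to 3′ in the direction of transcription: Cdc6 and Orc1, which help to load the helicase; Mcm5 and Mcm6, of the helicase ring; Rrm2, the subunit of ribonucleotide reductase with the smallest p below; and Pola2, which behaved unlike the other genes. Capitals mark the E2F words, or their reverse complements, in Cdc6, Orc1, Mcm5 and Mcm6; the Rrm2 and Pola2 windows hold none, which says only that these letters are not in these windows.
Cdc6: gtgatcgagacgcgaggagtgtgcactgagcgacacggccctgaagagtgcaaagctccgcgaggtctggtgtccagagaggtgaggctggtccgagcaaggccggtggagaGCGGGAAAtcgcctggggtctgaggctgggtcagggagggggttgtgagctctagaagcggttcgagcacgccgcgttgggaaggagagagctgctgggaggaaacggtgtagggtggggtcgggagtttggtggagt
Orc1: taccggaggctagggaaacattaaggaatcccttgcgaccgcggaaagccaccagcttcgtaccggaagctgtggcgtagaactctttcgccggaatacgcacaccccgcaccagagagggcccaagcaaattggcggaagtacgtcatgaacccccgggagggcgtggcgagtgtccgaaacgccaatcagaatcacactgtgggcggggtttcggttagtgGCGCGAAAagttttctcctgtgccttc
Mcm5: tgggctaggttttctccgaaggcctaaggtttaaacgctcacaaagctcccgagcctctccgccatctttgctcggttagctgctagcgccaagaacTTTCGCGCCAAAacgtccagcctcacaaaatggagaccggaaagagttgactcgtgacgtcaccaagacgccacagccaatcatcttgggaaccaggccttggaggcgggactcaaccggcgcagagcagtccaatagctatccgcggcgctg
Mcm6: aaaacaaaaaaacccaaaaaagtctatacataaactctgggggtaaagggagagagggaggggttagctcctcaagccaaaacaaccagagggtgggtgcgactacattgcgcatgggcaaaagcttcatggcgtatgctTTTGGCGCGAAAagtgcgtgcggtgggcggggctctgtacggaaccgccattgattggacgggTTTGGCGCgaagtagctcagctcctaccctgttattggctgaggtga
Rrm2: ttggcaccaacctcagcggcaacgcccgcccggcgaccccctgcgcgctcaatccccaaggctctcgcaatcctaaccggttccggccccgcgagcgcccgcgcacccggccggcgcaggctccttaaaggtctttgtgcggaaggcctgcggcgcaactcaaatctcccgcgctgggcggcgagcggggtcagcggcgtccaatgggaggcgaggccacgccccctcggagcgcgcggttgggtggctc
Pola2: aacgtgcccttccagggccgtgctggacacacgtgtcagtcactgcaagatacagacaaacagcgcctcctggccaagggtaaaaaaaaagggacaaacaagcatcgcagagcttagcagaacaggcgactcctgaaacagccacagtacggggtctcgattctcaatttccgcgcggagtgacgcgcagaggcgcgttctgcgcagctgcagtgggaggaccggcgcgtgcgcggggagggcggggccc
The Mcm5 window (chr8:75109259-75109508, plus strand) holds E2F words that begin 153 and 149 bases before the start, and the Mcm6 window (chr1:128359706-128359955, minus strand) at 110, 106 and 47 bases. Those of Cdc6 (chr11:98907901-98908150, plus strand) and Orc1 (chr4:108579204-108579453, plus strand) begin at 138 and 27 bases. The Rrm2 window (chr12:24708004-24708253, plus strand) holds CCAAT at 50 bases and no E2F word, and the Pola2 window (chr19:5964207-5964456, minus strand) neither. A match is a description of letters and does not show that a factor binds there.

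Reads assigned to genes came to between 12304713 and 54339749 per library, 28066870 to 54339749 in CD150-negative and 12304713 to 35034318 in CD150-positive libraries. Slamf1, which encodes CD150, stood at 11.2 to 30.5 CPM (counts scaled to a common library total, with TMM factors within a population) in CD150-positive libraries and 0.225 to 2.36 CPM in CD150-negative ones. Mysm1 was at 74.1, 67.4 and 69.6 CPM in CD150-negative Mysm1-/-Puma-/- and 125, 102 and 78.7 CPM in Mysm1-/-Puma+/- libraries, against 110, 103 and 100 CPM in wild type. In CD150-positive libraries it was at 67.7 to 87.7, 96.3 to 118 and 111 to 125 CPM in the same order of genotypes. Mysm1 totals thus did not separate Mysm1-/-Puma+/- from wild type libraries. In both populations every Mysm1-/-Puma-/- library was below every Mysm1-/-Puma+/- library, and the part of this in the results was not tested. Bbc3 was higher in both Mysm1-deficient groups. Gene totals do not say which exons were read, so neither gene checks the labels. Cdkn1a, a p53 target that encodes a cell-cycle inhibitor, was at 25.5 to 32.3 CPM in CD150-negative Mysm1-/-Puma-/- and 29.5 to 37.7 CPM in Mysm1-/-Puma+/- libraries, against at most 2.95 CPM in Puma-/- and 2.44 CPM in wild type. Reads on 1471 odorant, vomeronasal and trace amine receptor genes, which marrow cells are not known to use, made up 622 to 9003 CPM of the library totals and are called background reads here.

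CD150-negative Mysm1-/-Puma-/- libraries held less RNA of the replication genes than the 3 other genotypes. The mean over the 47 genes of log2(CPM + 1) was 5.61, 5.99 and 6.11 in Mysm1-/-Puma-/- libraries, against 6.58, 6.64 and 6.21 in Mysm1-/-Puma+/-, 6.54, 6.43 and 6.33 in Puma-/- and 6.62, 6.63 and 6.37 in wild type. The 3 Mysm1-/-Puma-/- libraries lay below all 9 others, with B1 the lowest. Summed over the genes other than Tyms, set apart for the reason given below and chosen after its values were seen, this was 4200 ± 803 CPM in Mysm1-/-Puma-/- libraries, 6287 ± 1002 CPM in Mysm1-/-Puma+/-, 6027 ± 525 CPM in Puma-/- and 6515 ± 746 CPM in wild type (SD, n = 3 each). In CD150-positive cells the means on the log scale were 6.33 ± 0.12 in Mysm1-/-Puma-/- (n = 7), 6.57 ± 0.46 in Mysm1-/-Puma+/- (n = 4), 6.35 ± 0.08 in Puma-/- (n = 2) and 6.47 ± 0.11 in wild type (SD, n = 4), and the groups overlapped. The spread among the CD150-positive Mysm1-/-Puma+/- libraries ran over 6.98, 6.86, 6.46 and 5.96 in A1 to A4. A1 was the highest of the 17 libraries for 35 genes and A4 the lowest for 25.

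**Figure D1:**
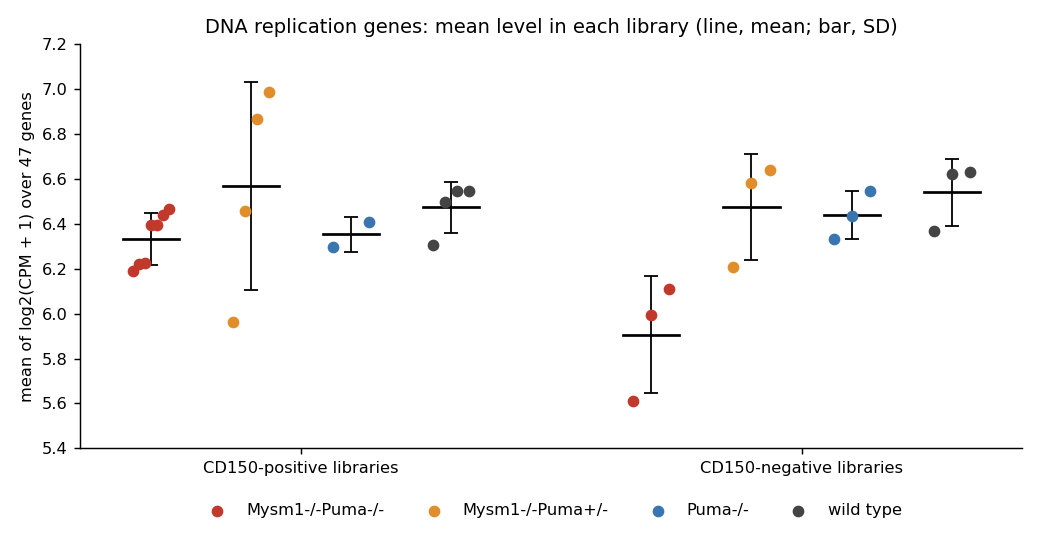
Mean of log2(CPM + 1) over the 47 replication genes in each library (points), by genotype and population, with the group mean (line) and SD (bar). The 3 CD150-negative Mysm1-/-Puma-/- libraries (5.61, 5.99 and 6.11) lie below all other CD150-negative libraries, and the CD150-positive Mysm1-/-Puma+/- libraries spread from 5.96 to 6.98.

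Levels differed widely between genes when scaled per kilobase of counted length (RPKM). In CD150-negative cells the median of the 47 was 20.1 RPKM in Mysm1-/-Puma-/-, 28.7 in Mysm1-/-Puma+/-, 27.3 in Puma-/- and 28.9 in wild type. Mcm6, of the helicase ring, had the highest level in each of these groups, at 162 RPKM in Mysm1-/-Puma-/-, 235 in Mysm1-/-Puma+/-, 212 in Puma-/- and 233 in wild type cells. Cdc7, the kinase that fires origins, was the lowest in wild type at 4.18 RPKM, and Ccne2 the lowest in Mysm1-/-Puma-/- at 2.53 RPKM. These ranks depend on the counted lengths, which were not checked. Before that scaling Cdc7 was not the lowest, at 58.3, 47.7 and 42.3 CPM in wild type, against 15.1, 14.7 and 16.8 CPM for Ccne1. In CD150-positive cells the medians were 26.1 RPKM in Mysm1-/-Puma-/-, 33.4 in Mysm1-/-Puma+/-, 25.6 in Puma-/- and 28.7 in wild type, and Pcna, the clamp, led each group, at 204 RPKM in Mysm1-/-Puma-/-, 261 in Mysm1-/-Puma+/-, 225 in Puma-/- and 231 in wild type. Pcna has annotated pseudogenes, and reads that fit both could have been split or lost.

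Among CD150-negative libraries, B1 held the lowest level of 43 of the 47 genes, A3 of 3 and B3 of 1. The highest level was in D3 for 18 genes, in A2 for 10, in D2 for 9, in A1 for 5, in C2 for 4 and in B1 for 1, Tyms. B1 also carried the most background reads of the CD150-negative libraries, 5810 CPM, against 2923 and 3192 CPM in B3 and B5 and 1042 to 4296 CPM in the other genotypes. The numbers of called genes among the 47 are therefore given with and without it in the comparisons where genes were called. The medians in those between CD150-negative genotypes are given with a range over alternatives that include leaving it out. Counts without overlap, counts at an unadjusted p, most values of single genes and the other gene lists are given with B1 only. The part of B1 in the results beyond those values was not tested.

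**Figure D2:**
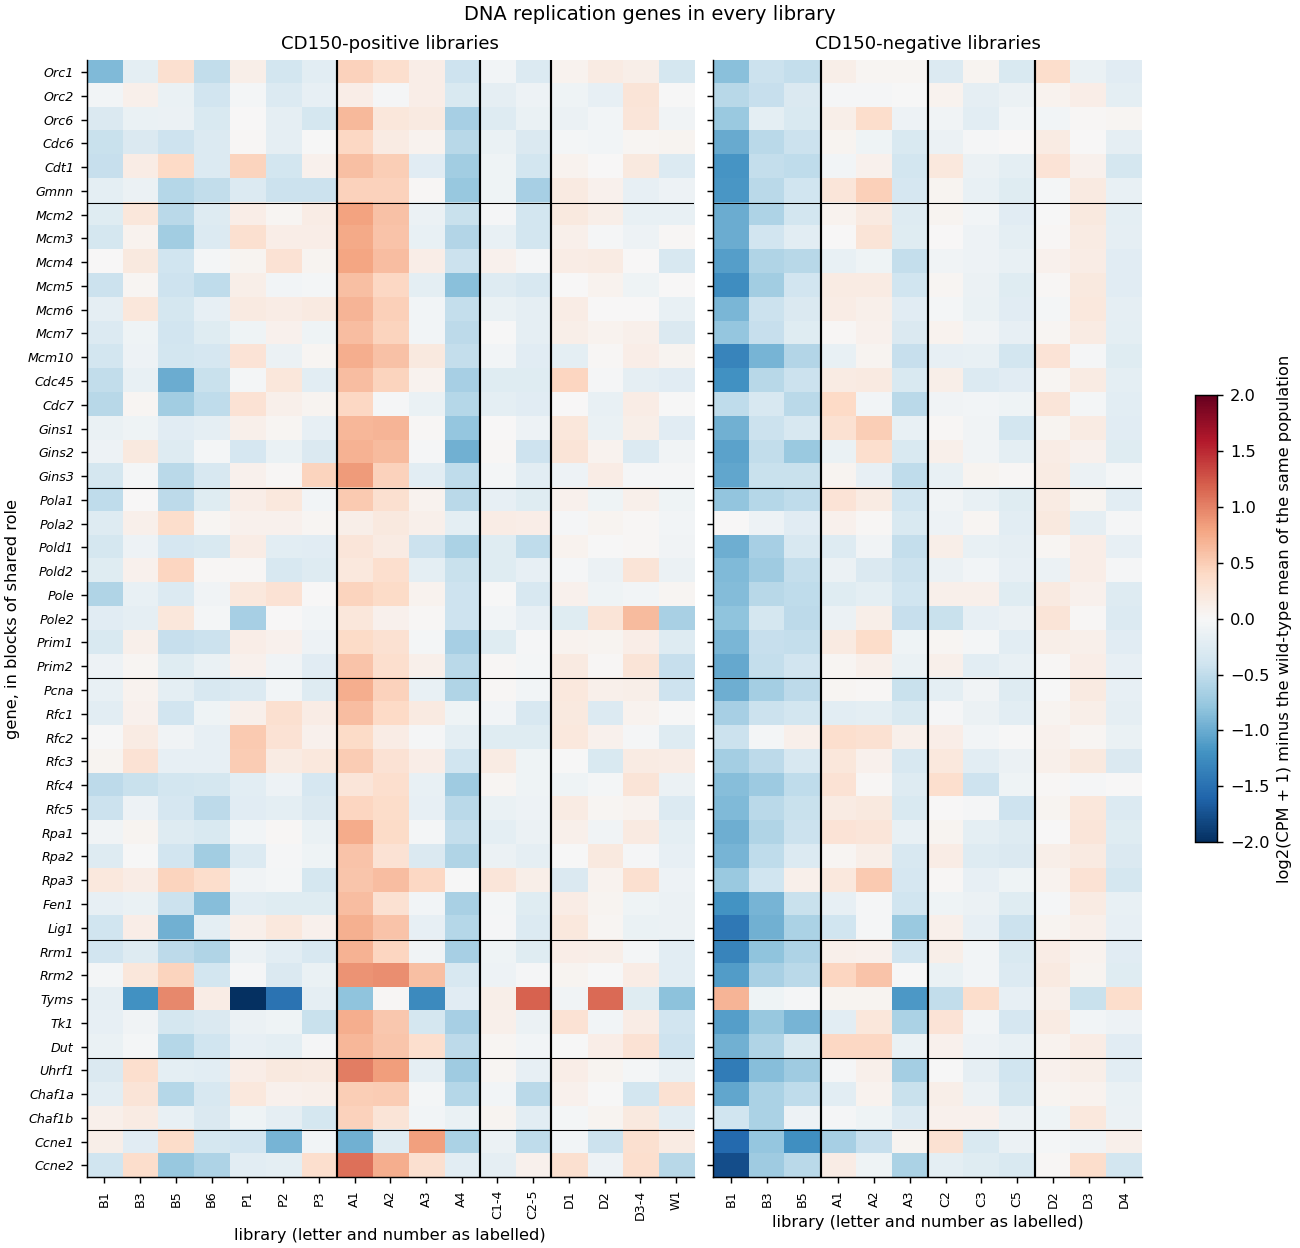
Each gene (rows, in blocks of shared role) in each library (columns), as log2(CPM + 1) minus the wild-type mean of the same population. The CD150-negative Mysm1-/-Puma-/- columns are low in nearly every row, with B1 the lowest for 43 of 47 genes, and among CD150-positive Mysm1-/-Puma+/- columns A1 is the highest of all for 35 genes and A4 the lowest for 25.

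The loss of the second Puma allele in Mysm1-deficient mice is addressed by Mysm1-/-Puma-/- against Mysm1-/-Puma+/- cells. In the CD150-negative population 5 of the 47 genes fell and none rose (edgeR's quasi-likelihood F test over 21168 genes with Benjamini-Hochberg adjustment, adjusted p under 0.05), where 1.05% of all genes tested were called lower. They were Rrm2, Rrm1 and Dut of deoxynucleotide supply, Prim1, the catalytic subunit of primase, and Rpa1, the large subunit of the single-strand binding protein. The median log2 fold change of the 47 was −0.61, against 0.09 over all genes tested, and 46 of 47 were negative. A shared sign alone does not set this comparison apart. Where no gene of the set was called between genotypes, 7 to 45 of the 47 were negative. The 45 were in CD150-negative Puma-/- against wild type, with a median of −0.11. The 7 were in CD150-positive Mysm1-/-Puma+/- against wild type, where 40 were positive. At an unadjusted p under 0.05, 42 of the 47 were lower, against 10.5% of all genes, and for 32 of the 47 every Mysm1-/-Puma-/- library lay below every Mysm1-/-Puma+/- library, against 12.3% of all genes. The count of 5 rested on single libraries. It was 0 without A2, 1 without A1, B1 or B3, 2 without D2 or D3, 8 without C3, 21 without B5 and 29 without A3. It was also 0 with only these groups fitted and 0 with the sample number as a block, and DESeq2 called 31. The share of 1.05% belongs to the main fit only. Of all genes, DESeq2 called 1151 lower, where the main fit called 222. With only these groups 1 of all genes was called lower, and with the block 0. Counts over all genes without single libraries are not given. The median stayed between −0.72 and −0.46 over those alternatives and the others tried.

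Deoxynucleotide supply held 3 of the 5 calls, which does not set this role apart. Genes of other roles lay just above the threshold (edgeR adjusted p = 0.0522 for Mcm10 and 0.0565 for Gmnn). Of 18 alternatives, the call was lost in 8 for Rrm1 and for Dut, in 7 for Prim1 and for Rpa1, and in 3 for Rrm2. Rrm2, the regulated subunit of ribonucleotide reductase (chr12:25393106-25399011 on NCBIM37, the assembly known as mm9, plus strand, 9 exon blocks), stood at 26.7, 37.4 and 40.2 CPM in Mysm1-/-Puma-/- libraries, against 80.1, 87.6 and 58.5 CPM in Mysm1-/-Puma+/-, with 54.0, 56.7 and 48.8 CPM in Puma-/- and 67.0, 61.4 and 49.8 CPM in wild type. All 3 Mysm1-/-Puma-/- libraries were below all 9 others. It fell by 1.12 on the log2 scale against Mysm1-/-Puma+/- (SE 0.18, edgeR adjusted p = 0.00792), and this call was lost without A2 (adjusted p = 0.0736). Rrm1, the large subunit of the same enzyme (chr7:109590209-109618285, plus strand), was at 134, 193 and 221 CPM in Mysm1-/-Puma-/- libraries, against 361, 359 and 255 CPM in Mysm1-/-Puma+/- (log2 fold change −0.83, SE 0.19, edgeR adjusted p = 0.0392). Dut, the dUTPase that keeps uracil out of DNA (chr2:125072926-125084344, plus strand), was at 83.8, 108 and 133 CPM in Mysm1-/-Puma-/- libraries, against 219, 220 and 150 CPM in Mysm1-/-Puma+/- (log2 fold change −0.86, SE 0.18, edgeR adjusted p = 0.0299). Neither gene's groups overlapped. Tk1, the thymidine kinase of the salvage pathway, had a log2 fold change of −0.78 and was not called (edgeR adjusted p = 0.064).

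Tyms, thymidylate synthase, was the exception of this role and of the whole set. It stood at 1199, 710 and 737 CPM in CD150-negative Mysm1-/-Puma-/- libraries, against 779, 784 and 338 CPM in Mysm1-/-Puma+/-, with 536, 957 and 668 CPM in Puma-/- and 805, 551 and 958 CPM in wild type. The groups overlapped, and the log2 fold change against Mysm1-/-Puma+/- was 0.48 (SE 0.30, edgeR adjusted p = 0.443). Across the 12 CD150-negative libraries log2 Tyms followed log2 background reads with Pearson's r = 0.990 (permutation p = 1e-05, the smallest that 100000 permutations can give; adjusted p = 0.00047 over 94 relations) and Spearman's rho = 0.944 (adjusted permutation p = 0.00188), and r was 0.967 without the 2 libraries farthest from the median. Over the 17 CD150-positive libraries r was 0.984 and rho 0.976 (adjusted permutation p = 0.00047 and 0.00094), and r was 0.972 without the 2 farthest. In CD150-negative libraries the other 46 genes had r between −0.619 and 0.585 (median −0.34), with Pola2 the highest. In CD150-positive libraries these genes had r between −0.733 and 0.334 (median −0.30), with Pola2 at 0.107. Of these only Rfc3 passed adjustment, in CD150-positive libraries, by Pearson's r of −0.733 (adjusted permutation p = 0.0273) and not by Spearman's rho of −0.630 (adjusted p = 0.174). With background reads as a covariate the Tyms log2 fold change turned to −0.12 (edgeR adjusted p = 0.681), while that of Rrm2 was −1.14 (edgeR adjusted p = 0.00815).

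**Figure D3:**
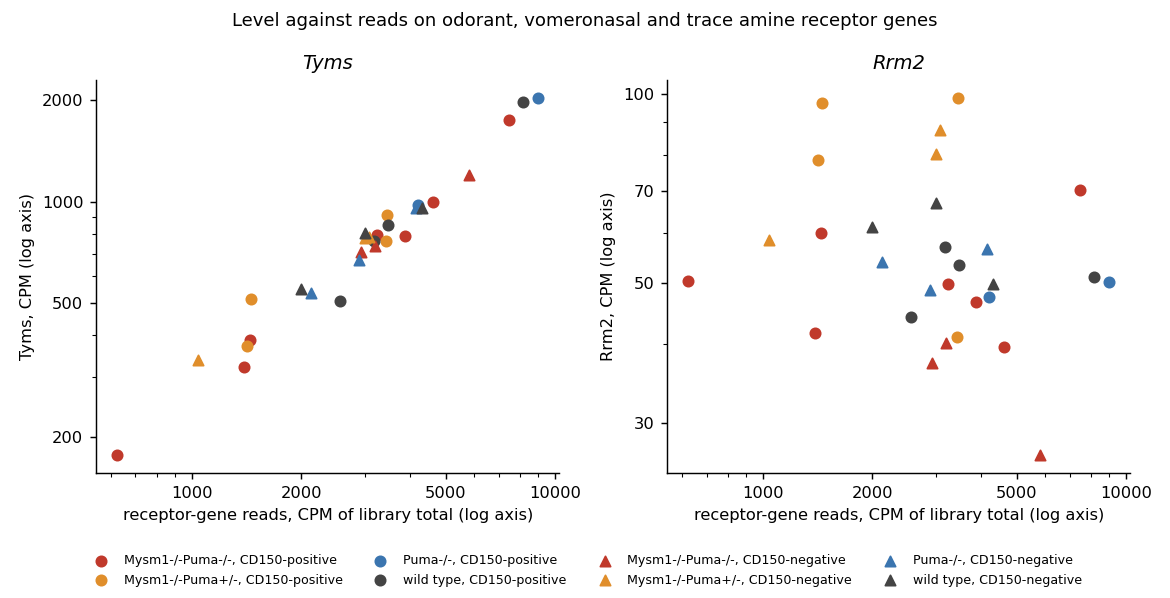
Tyms and Rrm2 (CPM, log axis) against reads on odorant, vomeronasal and trace amine receptor genes (CPM of the library total, log axis), 1 point per library, coloured by genotype. Tyms climbs with the receptor reads in both populations (r = 0.990 over 12 and 0.984 over 17 libraries), and Rrm2 shows no such line, with the CD150-negative Mysm1-/-Puma-/- libraries at 26.7 to 40.2 CPM.

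Prim1 and Rpa1 were the other called genes of this comparison. Prim1 (chr10:127452228-127467093, plus strand) stood at 35.7, 49.1 and 48.6 CPM in Mysm1-/-Puma-/- libraries, against 76.6, 87.4 and 64.0 CPM in Mysm1-/-Puma+/-, with 70.1, 65.9 and 58.7 CPM in Puma-/- and 74.1, 72.6 and 58.1 CPM in wild type. Its log2 fold change against Mysm1-/-Puma+/- was −0.77 (SE 0.16, edgeR adjusted p = 0.0299), and the 3 Mysm1-/-Puma-/- libraries lay below all others. Rpa1 (chr11:75111668-75161826, minus strand) stood at 92.8, 120 and 135 CPM in Mysm1-/-Puma-/- libraries, against 222, 217 and 165 CPM in Mysm1-/-Puma+/-, with 190, 160 and 153 CPM in Puma-/- and 184, 216 and 154 CPM in wild type (log2 fold change against Mysm1-/-Puma+/- −0.80, SE 0.17, edgeR adjusted p = 0.0323). Again no other library was as low. Its partners Rpa2 and Rpa3 had log2 fold changes of −0.51 and −0.52 and were not called (edgeR adjusted p = 0.168 and 0.317).

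In the remaining roles no gene passed the threshold against Mysm1-/-Puma+/-, and the gene with the smallest p of each is given. Gmnn, geminin (chr13:24843714-24853792, minus strand), was at 20.8, 32.6 and 36.0 CPM in Mysm1-/-Puma-/- libraries, against 56.7, 67.0 and 37.7 CPM in Mysm1-/-Puma+/- (log2 fold change −0.85, edgeR adjusted p = 0.0565), with 40.1 to 49.4 CPM in Puma-/- and 43.0 to 54.3 CPM in wild type. Mcm10, which links the helicase to primase (chr2:4910760-4933837, minus strand), was at 37.4, 49.1 and 62.5 CPM in Mysm1-/-Puma-/- libraries, against 85.1, 98.9 and 68.9 CPM in Mysm1-/-Puma+/- (log2 fold change −0.76, edgeR adjusted p = 0.0522). Both genes were lowest in the 3 Mysm1-/-Puma-/- libraries. The log2 fold changes of the 6 licensing genes lay between −0.85 and −0.41 and those of the 12 helicase genes between −0.80 and −0.42.

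Uhrf1, which brings the maintenance DNA methyltransferase to new DNA (chr17:56442744-56462909, plus strand), was at 114, 168 and 185 CPM in Mysm1-/-Puma-/- libraries, against 296, 325 and 189 CPM in Mysm1-/-Puma+/- (log2 fold change −0.80, edgeR adjusted p = 0.0602). Library A3, at 189 CPM, was next to the highest Mysm1-/-Puma-/- library, and the groups did not overlap. Ccne1, cyclin E1 (chr7:38883003-38892553, minus strand), was at 4.64, 8.63 and 6.04 CPM in Mysm1-/-Puma-/- libraries, against 9.37, 11.0 and 16.1 CPM in Mysm1-/-Puma+/- (log2 fold change −0.92, edgeR adjusted p = 0.0783). Among the clamp group other than Rpa1 the log2 fold changes ran down to −0.75 for Rfc4, of the clamp loader, and the one nearest 0 was that of Rfc1, its large subunit, at −0.24. In the polymerase group Pola2, the accessory subunit of polymerase alpha, was at 136, 127 and 116 CPM in Mysm1-/-Puma-/- libraries, against 145, 139 and 110 CPM in Mysm1-/-Puma+/-, and its log2 fold change of −0.05 (SE 0.14, edgeR adjusted p = 0.907) was the closest to 0 of the 47. Pola1, the catalytic subunit of the same enzyme, had −0.66 and was not called (edgeR adjusted p = 0.056).

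Against wild type, the same CD150-negative Mysm1-/-Puma-/- libraries had more called genes: 16 of the 47 fell and none rose, where 1.61% of all genes tested were called lower. This comparison and the preceding one share the Mysm1-/-Puma-/- libraries. The median log2 fold change of the 47 was −0.65, against 0.02 over all genes; 43 were lower at an unadjusted p under 0.05, against 7.47% of all genes, and 41 had no overlap between the groups, against 9.74% of all genes. The 16 were Ccne1, Lig1, Uhrf1, Tk1, Mcm10, Rrm1, Fen1, Gins2, Rrm2, Mcm4, Pcna, Chaf1a, Pold2, Rpa1, Cdc6 and Pole, with at least 1 from every role. Single libraries again moved the number, which was 1 without B1, 3 without D2 or D3, 7 without B3 and 29 without A3. DESeq2 called 34. With the sample number as a block each of the 16 lost its call (edgeR adjusted p from 0.139 for Mcm10 to 0.478 for Gins2). The median stayed between −0.79 and −0.52.

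Ccne1 had the largest fold change of the 16. It stood at 4.64, 8.63 and 6.04 CPM in Mysm1-/-Puma-/- libraries, against 15.1, 14.7 and 16.8 CPM in wild type, with no overlap (log2 fold change −1.27, SE 0.26, edgeR adjusted p = 0.0116). Lig1, the ligase that joins Okazaki fragments, was at 100, 139 and 175 CPM in Mysm1-/-Puma-/- libraries, against 281, 293 and 243 CPM in wild type (log2 fold change −0.98, edgeR adjusted p = 0.0136). Fen1, the nuclease that trims those fragments before Lig1 seals them, was at 61.6, 74.2 and 104 CPM in Mysm1-/-Puma-/- libraries, against 141, 160 and 129 CPM in wild type (log2 fold change −0.84, edgeR adjusted p = 0.0108). Neither gene's groups overlapped.

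Mcm10 had the smallest adjusted p of the set against wild type, at 37.4, 49.1 and 62.5 CPM in Mysm1-/-Puma-/- libraries and 114, 93.1 and 79.9 CPM in wild type (log2 fold change −0.95, SE 0.19, edgeR adjusted p = 0.00906). Uhrf1 was at 114, 168 and 185 CPM in Mysm1-/-Puma-/- libraries, against 322, 328 and 261 CPM in wild type (log2 fold change −0.96, edgeR adjusted p = 0.0141). Tk1 was at 22.5, 28.9 and 25.6 CPM in Mysm1-/-Puma-/- libraries, against 55.5, 47.9 and 45.9 CPM in wild type (log2 fold change −0.95, edgeR adjusted p = 0.0167). For each of these genes, the lowest wild-type library was above the highest Mysm1-/-Puma-/- library. Of the rest, Rrm1 and Rrm2 fell by 0.90 and 0.77 on the log2 scale (edgeR adjusted p = 0.0141 and 0.0281), Gins2, of the GINS complex, by 0.79 (0.0406), Mcm4, of the helicase ring, by 0.75 (0.0157), Pcna by 0.72 (0.0183) and Chaf1a, the large subunit of the CAF-1 histone chaperone, by 0.72 (0.0287). Pold2, a subunit of polymerase delta, Rpa1, Cdc6, which loads the helicase ring, and Pole, the catalytic subunit of polymerase epsilon, fell by 0.71, 0.67, 0.67 and 0.65 (edgeR adjusted p = 0.0169, 0.0447, 0.0411 and 0.0272).

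Only Tyms was positive against wild type, with a log2 fold change of 0.19 (SE 0.30, edgeR adjusted p = 0.932). The values nearest 0 among the other genes were those of Rfc2, a clamp-loader subunit, and Pola2, at −0.11 and −0.12 (edgeR adjusted p = 0.901 and 0.895). Rfc2 was at 94.1, 123 and 135 CPM in Mysm1-/-Puma-/- libraries, against 134, 130 and 116 CPM in wild type, and the groups overlapped. Both genes were named here after their values were seen.

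Against Puma-/- mice, which share the absence of Puma and have intact Mysm1, 4 of the 47 genes fell and none rose in CD150-negative Mysm1-/-Puma-/- cells, where 0.935% of all genes were called lower. Ccne1 was at 4.64, 8.63 and 6.04 CPM in Mysm1-/-Puma-/- libraries, against 19.4, 12.3 and 14.2 CPM in Puma-/- (log2 fold change −1.25, edgeR adjusted p = 0.0189). Tk1 was at 22.5, 28.9 and 25.6 CPM in Mysm1-/-Puma-/- libraries, against 60.2, 47.5 and 39.0 CPM in Puma-/- (log2 fold change −0.93, edgeR adjusted p = 0.0286). Rrm1 fell by 0.81 and Pole by 0.63 on the log2 scale (edgeR adjusted p = 0.0379 and 0.0443). In none of the 4 did the groups overlap. The median of the 47 was −0.55, against 0.03 over all genes; 40 were lower at an unadjusted p under 0.05, against 5.99% of all genes, and 38 had no overlap, against 8.22%. The count was 0 without B1 or C2, 1 without B3, 2 without C3 or D2, 8 without B5 and 13 without A3. It was 9 with background reads as a covariate, 2 with only these groups fitted, 0 with the sample number as a block and 23 by DESeq2. Of all genes, DESeq2 called 422 lower, where the main fit called 198. The median stayed between −0.70 and −0.41.

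**Figure D4:**
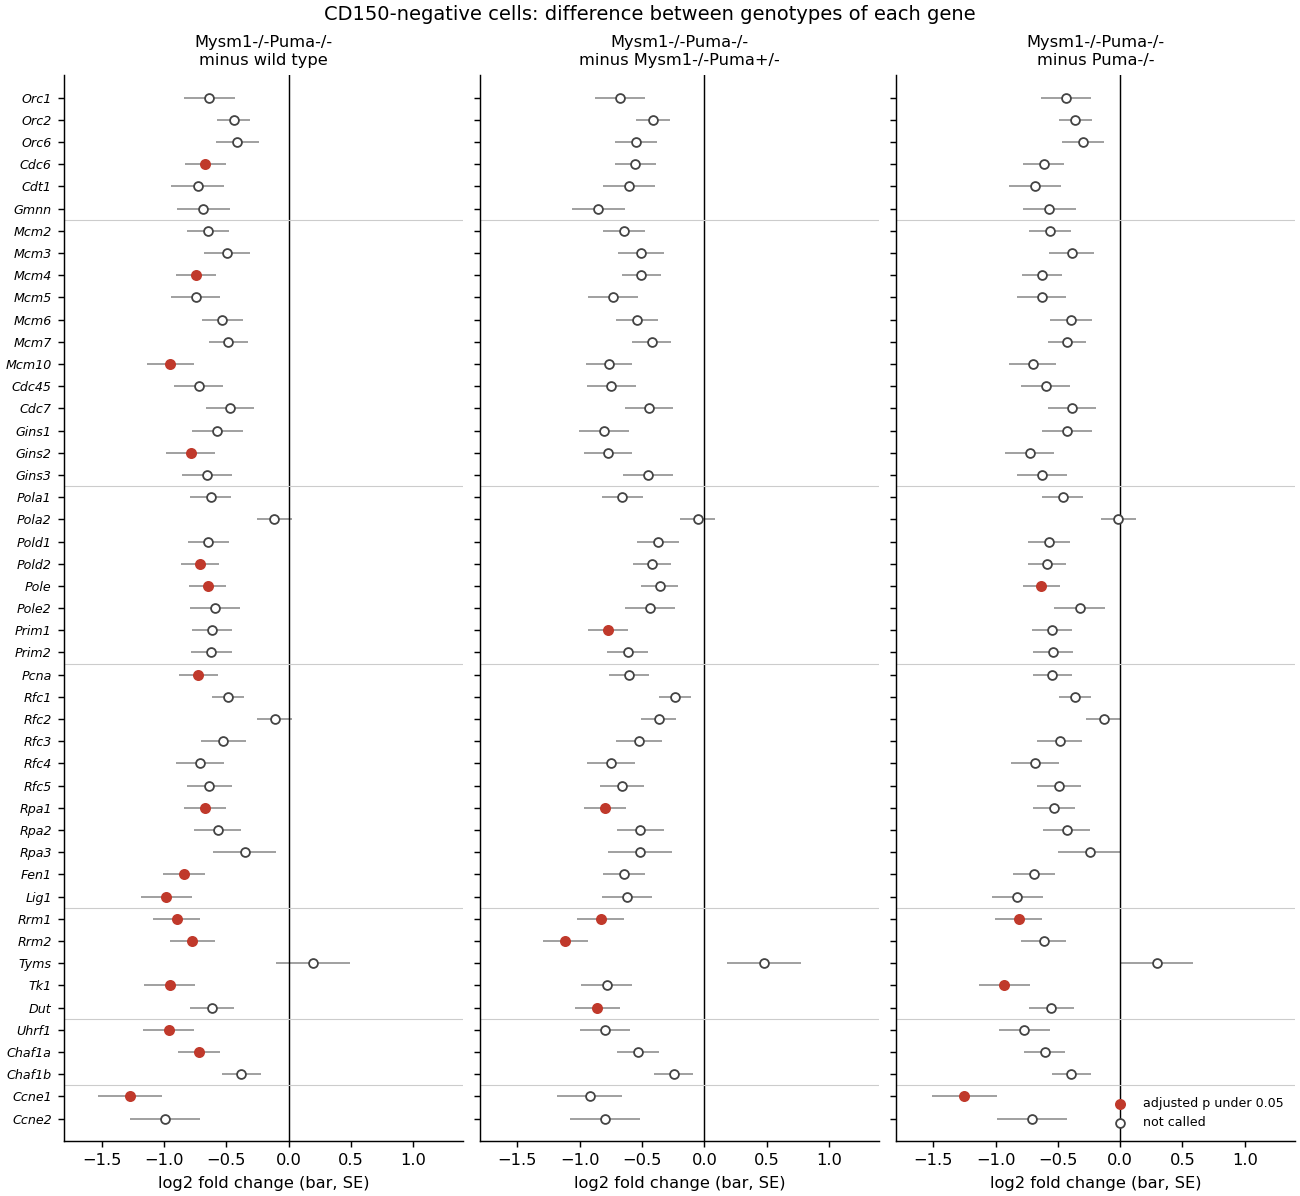
Log2 fold change (point) and SE (bar) of each of the 47 genes in CD150-negative cells, in 3 comparisons of Mysm1-/-Puma-/- with, from the left, wild type, Mysm1-/-Puma+/- and Puma-/- (filled, adjusted p under 0.05). Nearly all points lie left of 0, Tyms lies right of 0 in each, and Pola2 lies near 0.

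Neither Mysm1-/-Puma+/- nor Puma-/- cells had a called gene of the set against wild type in the CD150-negative population. In Mysm1-/-Puma+/- cells against wild type, none of the 47 genes was called by edgeR or DESeq2, none had an unadjusted p under 0.05, and the median log2 fold change was −0.05, the same as over all genes; 0.869% of all genes were called and 9.54% had an unadjusted p under 0.05. The largest were those of Lig1 and Ccne1, at −0.36 and −0.35, and of Rrm2, at 0.34 (edgeR adjusted p = 0.634, 0.738 and 0.591). In Puma-/- cells against wild type none of the 47 was called by either tool, none had an unadjusted p under 0.05 and the median was −0.11, against −0.01 over all genes, where edgeR called 0% of all genes and 1.53% had an unadjusted p under 0.05. With 3 libraries a group, a change smaller than the spread between them would not have been seen.

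In CD150-positive cells the Mysm1-/-Puma-/- and Mysm1-/-Puma+/- groups had no called gene among the 47 by edgeR or DESeq2. Over all 20944 genes tested edgeR called none (0%) and DESeq2 called 3, all higher. The median log2 fold change was −0.31, against 0.01 over all genes, and 10 were lower at an unadjusted p under 0.05, against 2.49% of all genes. No gene had groups that did not overlap, against 0.134% of all genes. Rrm2 had the smallest p, at 39.6, 49.9 and 70.3 CPM (lowest, median and highest of 7) in Mysm1-/-Puma-/- libraries, against 96.5, 98.5, 78.5 and 41.0 CPM in Mysm1-/-Puma+/-, with 47.5 and 50.2 CPM in Puma-/- and 53.3, 51.1, 57.1 and 44.2 CPM in wild type (log2 fold change −0.62, SE 0.19, edgeR adjusted p = 1). Libraries A1, A2 and A3 lay above all 7 Mysm1-/-Puma-/- libraries and A4 among the lowest. The median moved to −0.50 without A4 and to −0.13 without A1.

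The other genes with the smallest p of their role in CD150-negative cells showed the same spread among the CD150-positive Mysm1-/-Puma+/- libraries. Mcm10 was at 62.0, 74.4 and 97.4 CPM (lowest, median and highest of 7) in Mysm1-/-Puma-/- libraries, against 134, 121, 91.9 and 57.3 CPM in Mysm1-/-Puma+/- (log2 fold change −0.45, edgeR adjusted p = 1). Uhrf1 was at 162, 218 and 251 CPM in Mysm1-/-Puma-/- libraries, against 406, 356, 175 and 121 CPM in Mysm1-/-Puma+/- (log2 fold change −0.37, edgeR adjusted p = 1). In both the Mysm1-/-Puma-/- values lay within the range of the Mysm1-/-Puma+/- ones. Gmnn was at 31.3 to 43.2 CPM in Mysm1-/-Puma-/- libraries and 27.5 to 65.5 CPM in Mysm1-/-Puma+/-, and the groups overlapped. Prim1 was at 51.0 to 78.0 CPM in Mysm1-/-Puma-/- libraries and 44.4 to 92.5 CPM in Mysm1-/-Puma+/-, and Rpa1 at 143 to 183 CPM in Mysm1-/-Puma-/- libraries and 125 to 296 CPM in Mysm1-/-Puma+/-. Ccne1 was at 9.63 to 25.3 CPM in Mysm1-/-Puma-/- libraries and at 9.46, 16.0, 34.7 and 12.1 CPM in A1 to A4, lowest in the library where most of the set was highest. The summed level of 19 erythroid genes in the CD150-positive Mysm1-/-Puma+/- libraries was 1121, 974, 2037 and 1433 CPM in A1 to A4, beside 1010 to 1932 CPM in the Mysm1-/-Puma-/- libraries, with the haemoglobin genes at or near 0. That of 14 megakaryocyte genes was 660, 709, 1232 and 1599 CPM in A1 to A4, beside 488 to 1118 CPM in the Mysm1-/-Puma-/- libraries, so that of these 4 libraries those with more of the replication genes held less of this list. The part of either list in the spread was not tested.

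Other CD150-positive comparisons gave no call among the 47 genes by edgeR or DESeq2. In Mysm1-/-Puma-/- against wild type the median was −0.13, against −0.05 over all genes, and 1 gene, Rfc4, had an unadjusted p under 0.05 (0.291% of all genes called, 7.43% at an unadjusted p under 0.05); the median was −0.29 without the P and W libraries. In Mysm1-/-Puma-/- against Puma-/- the median was 0.01, against −0.09 over all genes, with none at an unadjusted p under 0.05 (0.115% and 9.75%), and its sign turned with RLE scaling (−0.08) and with the background covariate (−0.11). In Mysm1-/-Puma+/- against wild type it was 0.16, against −0.05, with 1, Rrm2, higher at an unadjusted p under 0.05 (0.454% and 8.71%). It was −0.01 without A1, and 1 gene was called without A4. In Puma-/- against wild type it was −0.16, against 0.02, with none (0% and 1.22%), in a comparison with only 2 Puma-/- libraries.

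The populations themselves were then compared within each genotype on a scale shared by all 29 libraries. In wild type cells the replication genes stood at about the same level in CD150-positive and CD150-negative cells, with a median log2 fold change of −0.06, against 0.05 over all 21830 genes tested, and Pola2 was the sole called gene. Pola2 (chr19:5940543-5964206, minus strand) was at 69.6, 78.7, 71.4 and 68.1 CPM in CD150-positive wild type libraries, against 153, 116 and 138 CPM in CD150-negative ones, and the log2 fold change was −0.92 (SE 0.14, edgeR adjusted p = 3.46e-05), where 4.05% of all genes were called lower. The populations did not overlap, though the call was lost with a block by library name (edgeR adjusted p = 0.172). The same gene was lower in CD150-positive cells of every genotype. It was at 70.9, 80.3, 73.2 and 61.3 CPM in CD150-positive and 141, 135 and 106 CPM in CD150-negative Mysm1-/-Puma+/- libraries (log2 fold change −0.83, edgeR adjusted p = 0.000146; 3.24% of all genes called lower). It was at 79.3 and 84.2 CPM in CD150-positive and 123, 143 and 117 CPM in CD150-negative Puma-/- libraries (−0.64, adjusted p = 0.0202; 2.66%). In Puma-/- this call was lost without C1-4, C2-5 or CD150-negative C3. In Mysm1-/-Puma-/- it was at 57.9, 74.5 and 93.8 CPM (lowest, median and highest of 7) in CD150-positive libraries, against 149, 126 and 116 CPM in CD150-negative ones (−0.81, edgeR adjusted p = 1.87e-05; 7.14% of all genes called lower).

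Within the other roles no gene was called between the wild type populations, and the gene with the smallest p of each is given. Orc6, of the origin recognition complex, was at 35.7, 39.7, 46.1 and 36.8 CPM in CD150-positive and 26.4, 27.4 and 29.5 CPM in CD150-negative libraries (log2 fold change 0.51, edgeR adjusted p = 0.0990), with no overlap. Uhrf1 was at 219, 221, 192 and 179 CPM in CD150-positive and 317, 315 and 267 CPM in CD150-negative libraries (−0.56, edgeR adjusted p = 0.227), also with no overlap. Rfc4 was at 35.9 to 46.4 CPM in CD150-positive and 30.9 to 34.0 CPM in CD150-negative libraries (0.29, edgeR adjusted p = 0.499), which did not overlap. In the annotation read here it shares exon bases with Eif4a2 on the opposite strand. Mcm6 was at 496 to 607 CPM in CD150-positive and 611 to 748 CPM in CD150-negative libraries (−0.26, edgeR adjusted p = 0.569), which did not overlap. Dut was at 144 to 232 CPM in CD150-positive and 145 to 176 CPM in CD150-negative libraries, and Ccne1 at 15.0 to 24.1 CPM in CD150-positive and 14.2 to 17.2 CPM in CD150-negative ones (edgeR adjusted p = 0.572 and 0.679), and both overlapped.

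In Mysm1-/-Puma-/- mice 13 of the 47 genes were higher in CD150-positive cells, where 5.16% of all genes were called higher, and the median log2 fold change was 0.44, against −0.07 over all genes. They were Ccne1, Ccne2, Pold2, Orc6, Mcm4, Rfc4, Dut, Rrm1, Pcna, Prim1, Cdc6, Chaf1b and Orc2, from all 7 roles. Ccne1 was at 9.44, 15.6 and 26.1 CPM (lowest, median and highest of 7) in CD150-positive libraries, against 5.06, 8.59 and 6.06 CPM in CD150-negative ones, with no overlap (log2 fold change 1.39, SE 0.32, edgeR adjusted p = 0.00308). Pold2 was at 29.5, 38.2 and 52.7 CPM in CD150-positive libraries, against 20.7, 21.2 and 25.5 CPM in CD150-negative ones (0.73, edgeR adjusted p = 0.00262), and Orc6 at 30.9, 33.4 and 39.2 CPM in CD150-positive libraries, against 17.9, 24.3 and 22.6 CPM in CD150-negative ones (0.65, edgeR adjusted p = 0.00913). Neither overlapped between the populations. The others had log2 fold changes between 0.40, for Orc2, and 0.94, for Ccne2. Single libraries moved the total of 14 called genes, Pola2 included: it was 3 without CD150-negative B1, 5 without CD150-negative B3, 8 without CD150-positive B3, 22 without CD150-positive B5, 23 without CD150-positive A4 and 5 without the P and W libraries. In Mysm1-/-Puma+/- cells the median was 0.12, where that over all genes was close to 0, and in Puma-/- cells −0.07, against 0.15.

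**Figure D5:**
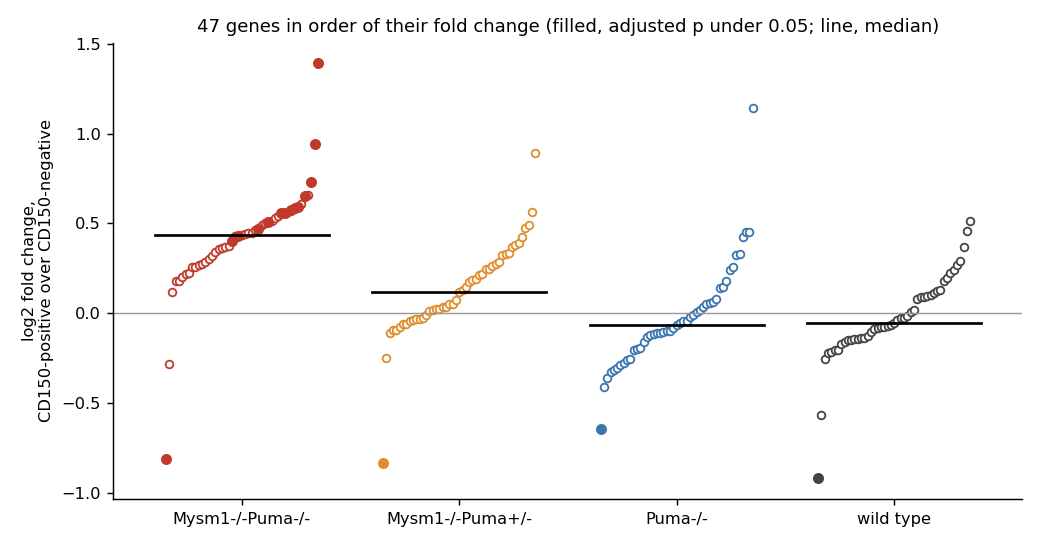
Log2 fold change of CD150-positive over CD150-negative cells for the 47 genes within each genotype, in order of size (filled, adjusted p under 0.05; line, median). The Mysm1-/-Puma-/- genes have a median of 0.44 and 13 called higher; the other genotypes have medians between −0.07 and 0.12, and Pola2 is the low filled point in each.

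Whether a genotype difference itself differed between the populations was tested as an interaction, and none of the 47 genes passed by edgeR or DESeq2. For Mysm1-/-Puma-/- minus wild type the median interaction (CD150-positive minus CD150-negative difference, log2) was 0.43 (0.69 without CD150-negative B5), against −0.10 over all genes, and 12 genes had an unadjusted p under 0.05, against 4.63% of all genes (0.00458% called). Ccne1 had the largest, 1.02 (edgeR adjusted p = 0.944). For Mysm1-/-Puma-/- minus Mysm1-/-Puma+/- the median was 0.29, against −0.05, and 1 gene had an unadjusted p under 0.05, against 2.12% (0% called); this median was 0.16 without CD150-positive A4 and 0.49 without CD150-negative B5. For Mysm1-/-Puma+/- minus wild type it was 0.16, against −0.05, with 1 gene, against 3.67% (0.00916% called), and lay between 0.04 without CD150-negative A3 and 0.38 without CD150-positive A4. The calls in CD150-negative cells and their absence in CD150-positive cells therefore do not show a difference between the populations.

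Genes outside the 47 that act beside them were counted from lists chosen with earlier results of these data known. Of 50 further replication genes, 4 fell in CD150-negative Mysm1-/-Puma-/- against Mysm1-/-Puma+/- cells, 9 against wild type and 4 against Puma-/-, and none rose, where 1.05%, 1.61% and 0.935% of all genes were called lower. The medians of this list were −0.43, −0.45 and −0.35, against 0.09, 0.02 and 0.03 over all genes. Ccna2, cyclin A2 of S phase, fell by 1.04, 1.19 and 1.00 on the log2 scale in these comparisons (edgeR adjusted p = 0.00792, 0.00065 and 0.00359), and Dbf4, the activator of CDC7, by 0.65, 0.71 and 0.75 (edgeR adjusted p = 0.0464, 0.0167 and 0.0163). Asf1b, a histone chaperone, fell by 1.30 against wild type (edgeR adjusted p = 0.00432).

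Of 15 genes of the E2F and RB families and their partners, 1, 5 and 3 fell in those comparisons (medians −0.33, −0.55 and −0.36). Over all genes 1.05%, 1.61% and 0.935% were called lower, and the medians were 0.09, 0.02 and 0.03. Of the 15, 1 rose, the RB relative Rbl2 against wild type (log2 fold change 0.57, edgeR adjusted p = 0.0384), where 0.704% of all genes were called higher. Mybl2, an E2F target that drives later cell-cycle genes, fell by 0.73, 1.10 and 1.02 on the log2 scale against Mysm1-/-Puma+/-, wild type and Puma-/- (edgeR adjusted p = 0.0453, 0.0013 and 0.00359). Of 25 mitosis genes, 16, 24 and 17 fell and none rose, with medians of −0.78, −0.98 and −0.80; Mki67, the proliferation marker, fell by 1.06 against wild type (edgeR adjusted p = 0.00117) and Kif2c, a kinesin of the spindle, by 1.00 against Mysm1-/-Puma+/- (edgeR adjusted p = 0.00877). None of the 3 lists had a called gene in Mysm1-/-Puma+/- or Puma-/- against wild type in these cells. Between the wild type populations E2f1, an activator of replication genes, was lower in CD150-positive cells by a log2 fold change of −1.47 (edgeR adjusted p = 8.33e-06), where 4.05% of all genes were called lower. E2f8, a repressor, was higher by 0.69 (edgeR adjusted p = 0.0121), where 675 of 21830 genes were called higher. The rest of that list is not given for this comparison. Among CD150-negative libraries E2f1 was lowest in A3 (40.0 CPM) and highest in B1 (84.2 CPM), which had the fewest and the most background reads. Its relation with those reads was not tested.

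Listed genes of blood lineages, stroma and endothelium were summed in the CD150-negative libraries. The summed level of 19 erythroid genes was 550 to 638 CPM in Mysm1-/-Puma-/- libraries, 501 to 1012 CPM in Mysm1-/-Puma+/-, 642 to 875 CPM in Puma-/- and 701 to 760 CPM in wild type, with all 3 Mysm1-/-Puma-/- libraries below the wild type ones and the haemoglobin genes at or near 0. That of 17 granulocyte and monocyte genes was 783 to 2403 CPM in Mysm1-/-Puma-/- libraries and 1152 to 2399 CPM in wild type, which overlapped. That of 14 megakaryocyte genes was 82.1 to 107 CPM in Mysm1-/-Puma-/-, 95.9 to 160 CPM in Mysm1-/-Puma+/-, 70.8 to 89.0 CPM in Puma-/- and 60.7 to 73.5 CPM in wild type libraries, so every Mysm1-/-Puma-/- library was above every wild type one. The B-lineage, T and NK, and stromal and endothelial lists overlapped between Mysm1-/-Puma-/- and wild type libraries. Single genes weigh heavily in these sums. Car2 was the largest part of the erythroid sum, with means of 318 CPM in Mysm1-/-Puma-/- and 356 CPM in wild type. Of the same list, Alas2 (5.06 and 2.83 CPM) and Slc4a1 (2.23 and 1.78 CPM) went the other way. Itga2b was the largest part of the megakaryocyte sum (35.6 and 28.3 CPM). Of that list, Gp1bb (0.0758 and 0.285 CPM), Gp5 (1.63 and 1.72 CPM) and Gp9 (1.06 and 1.28 CPM) went the other way. The part of any of these lists in the replication genes' difference was not tested.

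Counting limits the reading of some genes. In the annotation read here, 10 of the 47 share exon bases with another counted gene, mostly on the opposite strand (Orc2, Mcm7, Cdc45, Gins2, Rfc4, Rfc5, Lig1, Tk1, Chaf1a and Ccne2). The counting did not use the same exons for every gene. For Gins2 the 2758 bases shared with Gse1 exceed its counted length, as 31.2 CPM gave 30.1 RPKM in CD150-negative A1. The list may therefore differ for the features that were counted. The libraries kept strand, and the strand setting of the counting was not given in the sources used here, so reads of such a gene and its partner may not have been told apart.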

How the data were processed

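RNA was measured by rRNA-depleted, stranded RNA-seq, per the labels. Per the submitters' processing notes, the tools were FastQC, Trimmomatic 0.33, TopHat2 2.0.9, Bowtie 1.0.0, featureCounts, edgeR and R 3.4.2, and the genome build was mm9; their roles are not stated. The annotation, strand setting and handling of reads with several hits are not given in the sources used here. The values used are the whole-number read counts per gene that the authors deposited, with the counted length of each gene beside them; the deposited CPM matrix was not used, and 0 columns belonged to other samples.

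Counts were tested in R 4.3.3 with edgeR 4.0.16 (filterByExpr, TMM, quasi-likelihood F test, Benjamini-Hochberg adjustment over all genes tested): 21168 genes over 12 CD150-negative libraries, 20944 over 17 CD150-positive libraries, and 21830 over all 29 for comparisons of populations. SE was taken as the absolute log2 fold change over the root of F. Levels are TMM-scaled CPM, or the same per kilobase. Alternatives used DESeq2 1.42.0, RLE factors, no filter, background reads as a covariate, the replicate number as a block, the compared groups alone, and each library left out. The main fits were tested on simulated data, and no such test is given for the alternatives. A true log2 change of 0.6 was called for 18.2% of such genes in Mysm1-/-Puma-/- minus wild type in CD150-negative cells. It was called for 13.6% in CD150-positive cells, and for 25.8% between populations in Mysm1-/-Puma-/-. A change of 1 was called for 73.1%, 82.1% and 77.6%, in that order. Most changes of 0.6 were thus missed, so an absent call does not show an absent change.

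The 47 genes, the lists and the tests were chosen with earlier results of these data known. Named genes are the member of each role with the smallest p in Mysm1-/-Puma-/- minus Mysm1-/-Puma+/- (CD150-negative) and in CD150-positive minus CD150-negative (wild type), every called member (fold changes for at least the 12 largest), Mysm1, Bbc3, Cdkn1a and Slamf1, and up to 4 genes of each other list. Values of Tyms, Cdc7, Pola1, Rfc1, Rfc2, Rfc3, Rpa2, Rpa3 and, against wild type, Dbf4 are given outside that rule, chosen after they were seen.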

Additional observations from a re-analysis of the deposited data

Results flagged for a closer look

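The genes with the smallest p of their role, Tyms and the mean level of the 47 were examined, in each CD150-positive group of 4 or more libraries, for a library far from the rest; of 42 such combinations 1 stood out, and chance alone marks about 1 in 20. Orc6, of the origin recognition complex, was at 46.3 CPM in wild type CD150-positive library D3-4, against 35.7, 37.2 and 36.7 CPM in D1, D2 and W1. The gap to the next library was 0.843 of the range of the group on the log2 scale, above Dixon's critical value of 0.829 for 4 libraries. No call between genotypes rested on this gene, and its difference between the wild type populations, in which this library took part, was not called.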

How the results depend on the processing

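The direction of the median over the 47 genes in the 3 comparisons of CD150-negative Mysm1-/-Puma-/- cells was negative under every alternative run, while the number of genes called was not stable. Against Mysm1-/-Puma+/- it was 5 as reported, 31 by DESeq2, 0 with only the compared groups fitted, and 0 to 29 with 1 library left out; against wild type 16, 34 by DESeq2 and 1 to 29; against Puma-/- 4, 23 by DESeq2, 9 with background reads as a covariate, 2 with only the compared groups and 0 to 13. With the replicate block by sample number these 3 counts were 0, 0 and 0; in CD150-positive cells the block gave 4 for Mysm1-/-Puma+/- against wild type (1 without A4) and 1 for Mysm1-/-Puma-/- against wild type, where none was called without it, and a median of 0.40 in place of 0.16 for Mysm1-/-Puma+/-. Between populations, the replicate block by library name gave 0 in place of 1 in wild type (Pola2, adjusted p = 0.172 by edgeR) and 3 in place of 1 in Mysm1-/-Puma+/-, where the covariate and DESeq2 also gave 3 and leaving out 1 library 1 to 3. In Mysm1-/-Puma-/- 14 became 5 without the P and W libraries and 3 to 23 with 1 library left out, and in Puma-/- 1 became 0 to 1. The correlations of deviations from the group means lay between −0.41 and 0.42 for libraries of the same number within a population and between −0.14 and 0.53 for libraries of the same name across populations. The labels state no shared animal, litter or day, so these libraries were not treated as pairs. Across populations only the libraries named B5 and D2 had negative correlations, of −0.14 and −0.06. So few values cannot exclude that libraries of the same name share animals. The block could not be estimated for CD150-positive comparisons with Puma-/-. The block also gave an interaction median of 0.08 in place of 0.29 for Mysm1-/-Puma-/- minus Mysm1-/-Puma+/-. Rrm2 against Mysm1-/-Puma+/- had an adjusted p of 0.0714 with the block and 0.0783 with only the compared groups. Single-gene fold changes were run again for called genes, for the smallest-p genes of the naming rule and for Tyms against Mysm1-/-Puma+/-. Of these, only that of Tyms turned round, to −0.12 with background reads as a covariate. Other named fold changes were not run again, among them those of Pola2 near 0 between CD150-negative genotypes. Medians near 0 also changed sign: Mysm1-/-Puma+/- against wild type in CD150-negative cells (0.05 without A3) and in CD150-positive cells (−0.01 without A1), CD150-positive Mysm1-/-Puma-/- against wild type (0.03 with the replicate block) and against Puma-/- (−0.11 at the lowest), and CD150-positive against CD150-negative wild type cells (0.02 without W1) and Mysm1-/-Puma+/- cells (just under 0 without CD150-negative A3). Of 1344 alternatives for single named genes, 1101 left the call as it was, 228 lost it and 14 gained it. The causes were not tested. Groups of 2 to 7 libraries limit what can be called, and Ccne1, below 10 CPM in the CD150-negative Mysm1-/-Puma-/- libraries, rests on fewer reads there than any other of the 47. No scaling moved the median of all genes by over 0.1.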
